A study of Mus musculus with 6 samples.

Results

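The FOXO, AKT and mTOR axis links growth factor and nutrient signals to the choice between rest and growth. It was followed here through 9 genes in mouse hematopoietic stem cells. They were taken by symbol from a table of 22969 genes and are the transcription factor genes Foxo1, Foxo3 and Foxo4, the kinase genes Akt1 and Akt2, the brake genes Tsc1 and Tsc2, and Mtor with Rptor. All 9 symbols were found, and all 9 passed the filter on low counts that left 12350 genes for testing. Stem cells of Vav1-cre; Rbfox2-fl/fl mice were set against those of Rbfox2-fl/fl mice that carry the same floxed alleles without the recombinase. Both groups were C57BL/6 adults, with 3 libraries each. Vav1-cre recombines loxP sites in blood cells from early in development, so deletion is not limited to the stem cells. Rbfox2 is a regulator of alternative splicing, and the series asks how it acts on self-renewal and proteostasis of these cells. About 500 cells that lacked lineage markers and CD48 and carried Sca-1, c-Kit and CD150 were sorted for each library, and Smart-seq2 copied whole messages into cDNA without molecular identifiers.

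Growth factor receptors activate phosphoinositide 3-kinase, which recruits AKT to the membrane. AKT phosphorylates the FOXO factors, which then leave the nucleus, and it phosphorylates TSC2, which lifts the brake of the TSC1 and TSC2 complex on the GTPase RHEB. RHEB activates mTORC1, the complex of the kinase mTOR with its substrate-binding subunit Raptor, which promotes protein and ribosome synthesis. In mouse bone marrow, loss of FOXO factors, or of TSC1, is known to drive stem cells out of quiescence. Much of this control acts on phosphorylated protein, which RNA counts do not measure.

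The targeted gene was counted first. Rbfox2 had 2, 87 and 10 counts in the libraries labelled mutant 1, 2 and 3, against 238, 11 and 250 counts in those labelled control 1, 2 and 3. The library labelled mutant 2 thus held more Rbfox2 reads than the library labelled control 2. The counts can include exons left in place by a deletion, and every direction below rests on the labels. Libraries labelled mutant held 23474895 to 35650284 counts and those labelled control held 47895459 to 55151484 counts. Controls 1 and 3 differed far less from each other than any other pair (chi-square per degree of freedom 3.44, against 156 to 808). That is above sampling noise, but they were summed and counted as 1 sample, so n = 3 for mutant and n = 2 for control. The series' design text names 3 mice per group, and p values measure only the spread between these 5 samples. Mutant 1 stood apart on the first principal component, at -318.7 against 72.1 to 88.3 for the other samples. Mutants 1 and 3 had 2821 and 2467 counts of Xist, an RNA of females, and the others had at most 55, so that both Xist-high libraries were labelled mutant. All 12 stem cell marker genes had more than 3 counts in 5 libraries and 10 of 12 did in mutant 1. Of the progenitor markers, Cd48 had at most 3 counts in every library. Flt3 had 4.35 to 23.8 CPM (counts scaled to the total of the library) in mutants and 0.949 to 6.36 CPM in controls. Cd34 had 70.1 to 152 CPM in mutants and 49 to 94.8 CPM in controls. Summed erythroid markers were 129 to 483 CPM in mutant libraries, highest in mutant 1, and 120 to 169 CPM in controls. Cd3e, Cd3d, Cd3g, Pax5, Ebf1 and Ms4a1 of the T and B cell lists had at most 3 counts in each library, but other genes of these lists did not. Cd79b had 138 to 192 CPM in mutants and 211 to 325 CPM in controls, Nkg7 had 67.5 to 99.7 CPM in mutants and 82.6 to 96.3 CPM in controls, and Klrb1c had 100 CPM in mutant 1 against 3.84 to 13.4 CPM in controls. Summed neutrophil and monocyte markers, mostly Lyz2 and Prtn3, were 1698 to 1938 CPM in mutants and 1969 to 2918 CPM in controls. The part of these markers in the results was not tested, and summed megakaryocyte markers were 44 CPM in mutant 1 against 151 to 302 CPM in the rest.

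The 3 FOXO proteins share the AKT sites that make them targets of this pathway, and the codons of those sites are shown here. The search was for codons of arginine, any residue, arginine, any 2 residues, then serine or threonine, in the reading frame of each gene's longest annotated coding transcript (GENCODE M21, GRCm38, the same build as mm10). It found 3 matches in each FOXO gene. Capitals mark the codon of the serine or threonine, and the number is its place counted from the start codon.
Foxo1 codon 24: ctgccccggcagcgctcctgtACCtggccg
Foxo3 codon 32: cagagtcggccacgctcctgtACGtggccc
Foxo4 codon 32: cagagccgtccgcgatcctgcACCtggccc
Foxo1 codon 253: tcaccccggagaagagctgcgTCCatggac
Foxo3 codon 252: gccccccggcggcgtgcggtcTCCatggac
Foxo4 codon 197: gcaccccgccgcagggctgccTCCatggat
Foxo1 codon 316: acatttcgtcctcgaaccagcTCAaatgct
Foxo3 codon 314: gacttccgctcgcgcaccaatTCCaacgcc
Foxo4 codon 262: actttccgtccacgaagcagtTCAaatgct
Of 1777 tested genes with a coding sequence of 505 to 672 codons, the range of these 3, 31 (1.74%) held at least 3 such matches and 460 (25.9%) held at least 1. A match is a pattern of letters and not a measured phosphorylation.

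The letters TGCATG, the DNA form of the element that RBFOX proteins bind in RNA, were searched on the sense strand of the same transcripts. In the 3 prime untranslated regions they stood once in Foxo1, at 2 places in Foxo3 and once in Akt2, shown here with 10 bases on each side and the element in capitals.
Foxo1: aggcctggttTGCATGagaagaccaa
Foxo3 first: tggaactctaTGCATGgcgtcaggaa
Foxo3 second: agaaaaaagtTGCATGaatgaaaaca
Akt2: ttcacaaggcTGCATGggcgtgtacc
That is 3 of 9 genes (33.3%), and 48.5% of 6814 tested transcripts whose 3 prime regions are as long as those of the 9 genes held the element there. Coding sequences held 8 copies in Mtor, 2 each in Tsc2 and Rptor, 1 in Tsc1 and 0 in the other 5 genes. That is 1.05 per kilobase in Mtor and 0.45 per kilobase over the 9 genes, against 0.239 per kilobase over all tested coding sequences. Most of the copies lay in Mtor, so the value over the 9 genes rests largely on that gene. Akt2 also held 1 copy in its 5 prime untranslated region. Introns, where RBFOX proteins act on splicing, were not searched. None of the genes with a copy in the 3 prime region passed the test described below, and a link between these copies and RNA level was not tested.

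None of the 9 genes passed the test between libraries labelled mutant and control. By edgeR's quasi-likelihood test 0 of 9 passed at an adjusted p under 0.05, and 0 of 9 had an unadjusted p under 0.05. DESeq2 and limma-voom also called 0 of 9. A count of 0 here does not show that levels were alike. The edgeR fit called none of the changed genes in simulated data, at any size of change simulated. That simulation gave every gene the same spread (common dispersion 1.09), while spread differed between genes here. It thus does not give the power for each of the 9 genes. Over all genes edgeR called 0 of 12350 (0%), with 1221 (9.89%) at an unadjusted p under 0.05, 5.33% higher and 4.56% lower in mutant. DESeq2 called 477 of 14137 genes (3.37%), 1.67% higher and 1.70% lower in mutant. After scaling by TMM factors, 5 of the 9 genes had mutant and control samples that did not overlap, 2 higher and 3 lower in mutant, against 32.0% of all genes tested (14.9% higher and 17.2% lower). The median log2 fold change was 0.31 for the 9 genes and 0.11 for all genes. Positive values mean higher in libraries labelled mutant. Of all genes, 6610 lay above and 5740 below control. Without mutant 1, 0 of 9 had an unadjusted p under 0.05, and 23.7% of all genes did, while samples did not overlap for 6 of 9 and for 54.6% of all genes.

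**Figure D1:**
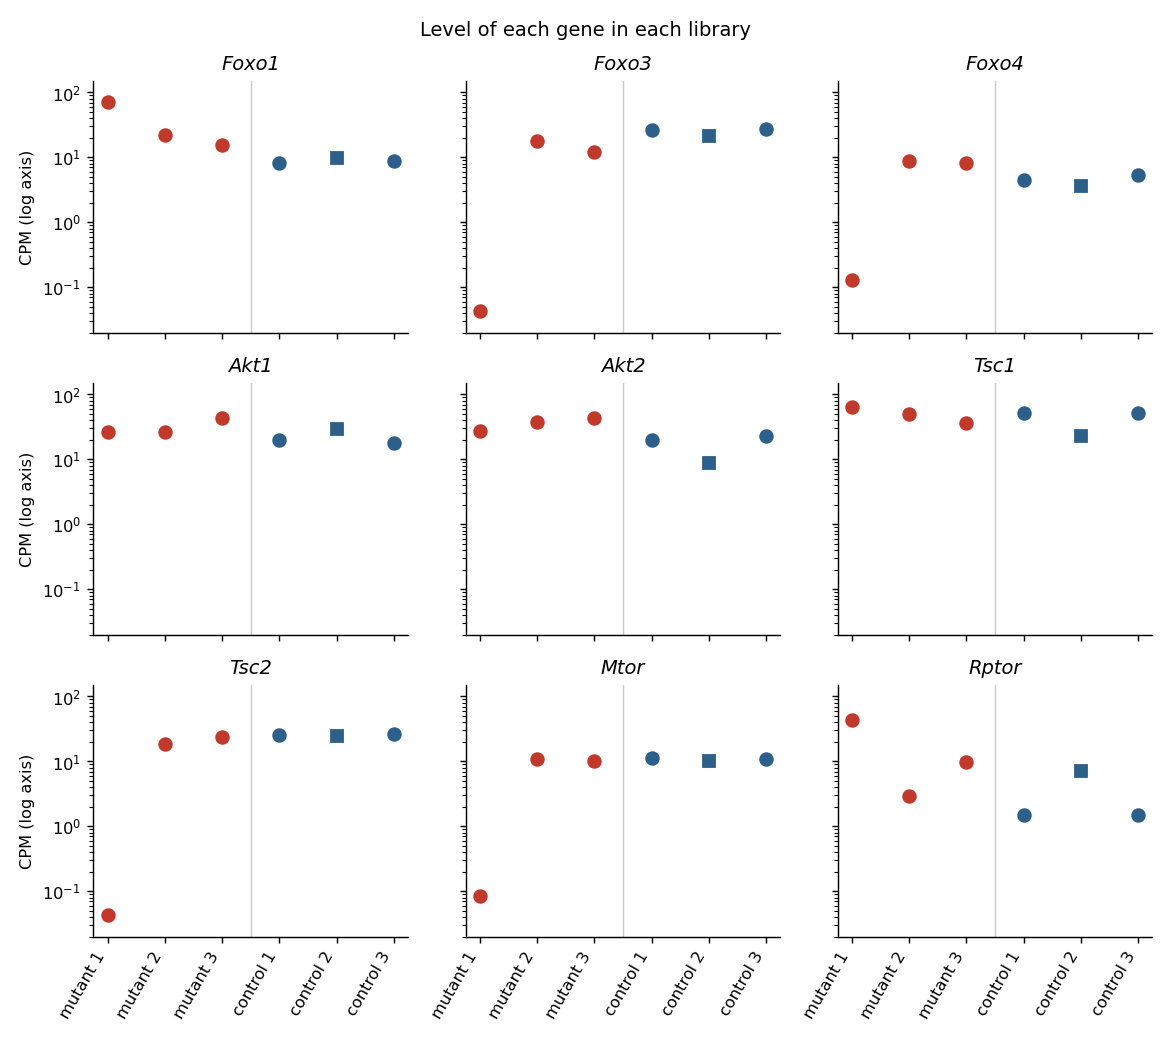
Level of each of the 9 genes (CPM, log axis) in the 3 libraries labelled mutant (red) and the 3 labelled control (blue), 1 point per library. Controls 1 and 3 (circles) were counted as 1 sample and control 2 is a square. Foxo3, Foxo4, Tsc2 and Mtor lie at or below 0.128 CPM in mutant 1 alone.

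Foxo1, the member of the family best known for metabolic control in liver and for lymphocyte development, was higher in each library labelled mutant. Foxo1 (ENSMUSG00000044167) is a protein-coding gene at chr3:52268336-52353221 of mm10, plus strand. It had 70.8, 22.3 and 15.8 CPM in mutants 1, 2 and 3, against 8.12, 9.68 and 8.83 CPM in controls 1, 2 and 3. The groups did not overlap, and mutant 1 was 7.78 times the control mean (95% Poisson interval 7.41 to 8.17). The means were 36.3 ± 30 CPM in mutant and 9.09 ± 0.835 CPM in control (SD, n = 3 and 2). In log2 units the edgeR difference came to 2.06 (SE 1.05, adjusted p = 0.617). Leaving out mutant 1 gave 0.85 (SE 0.59, edgeR adjusted p = 0.469). Poisson intervals cover counting error only, since PCR copies are not separate molecules.

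Foxo3, the FOXO factor whose loss in mice is known to exhaust hematopoietic stem cells, was lower in each library labelled mutant. Foxo3 (ENSMUSG00000048756) is a protein-coding gene at chr10:42181841-42276755 of mm10, minus strand. It had 0.0426, 18.1 and 12.3 CPM in mutants 1, 2 and 3, against 26.7, 21.3 and 27.1 CPM in controls 1, 2 and 3. The groups did not overlap with or without mutant 1, whose value rests on 1 read. That read is 0.00177 of the control mean, with an interval from 4.47e-05 to 0.00984. Mutants 2 and 3 averaged 15.2 CPM, which is 0.631 of the control mean of 24.1 CPM. Mutant and control differed by a log2 value of -1.44 (SE 1.69, edgeR adjusted p = 0.904). With mutant 1 left out it came to -0.87 (SE 0.50, edgeR adjusted p = 0.371). Fewer cells that carry a transcript and less of it in each cell cannot be told apart in libraries of pooled cells.

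Foxo4, an X-linked member of the family, split the libraries labelled mutant. Foxo4 (ENSMUSG00000042903) is a protein-coding gene at chrX:101254528-101260873 of mm10, plus strand. It had 0.128, 8.84 and 8.34 CPM in mutants 1, 2 and 3, against 4.51, 3.64 and 5.31 CPM in controls 1, 2 and 3. Mutants 2 and 3 lay above every control, at 2 times the control mean, and mutant 1 held 3 reads. The sign of its fold change turned with limma-voom (-0.92), with a length correction (-0.06), and without mutant 2 (-0.29) or mutant 3 (-0.08). By edgeR, mutant minus control was 0.23 in log2 units (SE 1.69, adjusted p = 0.990). Without mutant 1 it was 0.79 (SE 0.86, edgeR adjusted p = 0.662).

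The make-up of FOXO messages differed more than their sum. Per kilobase of the longest annotated transcript, the 3 genes together had 8.21, 8.01 and 6.26 CPM per kilobase in mutants 1, 2 and 3, against 6.26, 5.38 and 6.66 in controls 1, 2 and 3. Foxo3 made up 0.0757%, 33.0% and 28.8% of that sum in the mutants, against 62.3%, 57.8% and 59.5% in the controls. It was the leading FOXO message in each control and in no mutant. Foxo1 made up 99.4%, 32.1% and 29.1% in the mutants, against 15%, 20.8% and 15.3% in the controls. Foxo4 made up 0.492%, 34.9% and 42.1% in the mutants, against 22.8%, 21.4% and 25.2% in the controls. In mutant 3 the largest share was thus that of Foxo4, in mutant 2 the 3 shares were close to each other, and in mutant 1 nearly all was Foxo1. These shares combine the gene values above and were given no test.

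**Figure D2:**
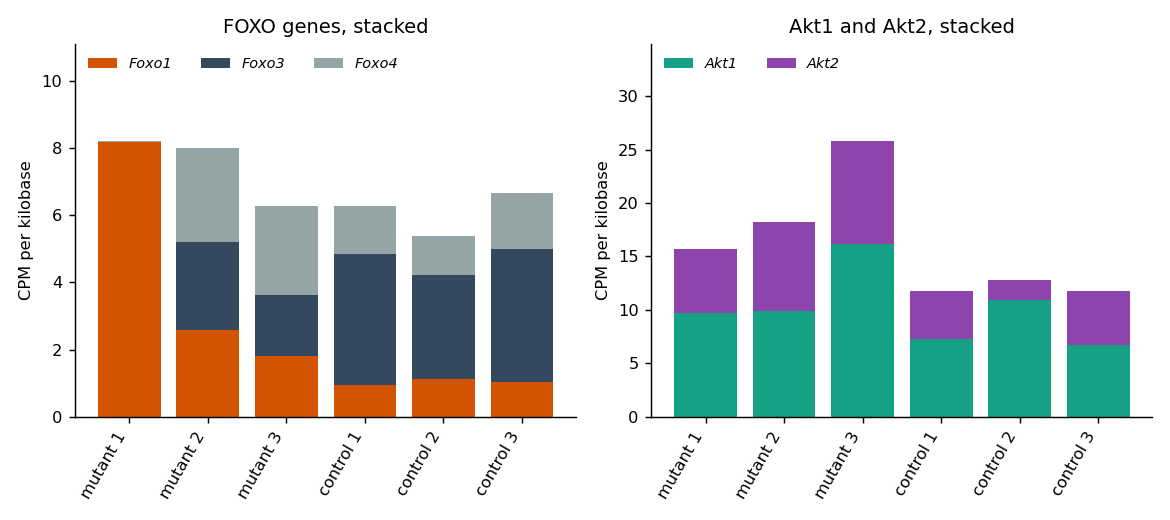
CPM per kilobase of the FOXO genes (left) and of Akt1 and Akt2 (right), stacked by gene, in each library labelled mutant or control. Foxo3 is the largest FOXO segment in every control and in no mutant, and the columns of Akt1 and Akt2 reach 15.7 to 25.8 in mutants and 11.7 to 12.8 in controls.

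Akt1, the kinase isoform known for growth and survival signals, overlapped between the groups. Akt1 (ENSMUSG00000001729) is a protein-coding gene at chr12:112653821-112674884 of mm10, minus strand. It had 26.1, 26.5 and 43.6 CPM in mutants 1, 2 and 3, against 19.6, 29.3 and 18.0 CPM in controls 1, 2 and 3. Control 2 lay above mutants 1 and 2, and the sign of the fold change turned with upper quartile factors (-0.03) and without controls 1 and 3 (-0.05). In log2 units the edgeR difference came to 0.31 (SE 0.68, adjusted p = 0.961). Its level in mutant 1 was 1.09 of the control mean, so this gene did not stand apart in that library.

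Akt2, the isoform best known for insulin signalling, was higher in each library labelled mutant, and its fold change hardly moved without mutant 1. Akt2 (ENSMUSG00000004056) is a protein-coding gene at chr7:27591552-27640826 of mm10, plus strand. It had 27.3, 38.2 and 43.8 CPM in mutants 1, 2 and 3, against 20.1, 8.66 and 23.1 CPM in controls 1, 2 and 3. The groups did not overlap, and the control samples differed from each other by more than mutant 1 did from control 3. The means were 36.4 ± 8.39 CPM in mutant and 15.2 ± 9.24 CPM in control (SD, n = 3 and 2). Mutant and control differed by a log2 value of 1.19 (SE 0.75, edgeR adjusted p = 0.721). Leaving out mutant 1 gave 1.23 (SE 0.52, edgeR adjusted p = 0.220). Akt1 and Akt2 together had 15.7, 18.3 and 25.8 CPM per kilobase in mutants 1, 2 and 3, against 11.7, 12.8 and 11.8 in controls 1, 2 and 3. Akt1 made up 54.0% to 62.7% of this sum in mutants and 56.8% to 85.1% in controls.

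Tsc1 encodes hamartin, which stabilizes the TSC complex, and it overlapped between the groups. Tsc1 (ENSMUSG00000026812) is a protein-coding gene at chr2:28641228-28691167 of mm10, plus strand. It had 63.1, 50.2 and 36.4 CPM in mutants 1, 2 and 3, against 51.6, 22.7 and 51.0 CPM in controls 1, 2 and 3. Controls 1 and 3 lay above mutants 2 and 3, and control 2 was the lowest library. By edgeR, mutant minus control was 0.43 in log2 units (SE 0.65, adjusted p = 0.935). With mutant 1 left out it came to 0.04 (SE 0.47, edgeR adjusted p = 0.977).

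Tsc2 encodes tuberin, the subunit with GTPase-activating activity toward RHEB. Tsc2 (ENSMUSG00000002496) is a protein-coding gene at chr17:24595816-24632630 of mm10, minus strand. It had 0.0426, 18.3 and 23.8 CPM in mutants 1, 2 and 3, against 25.1, 24.8 and 26.4 CPM in controls 1, 2 and 3. The mutant values lay below every control, by little in mutant 3 and by nearly all of the level in mutant 1, which held 1 read. In log2 units the edgeR difference came to -1.07 (SE 1.71, adjusted p = 0.944). Without mutant 1 it was -0.50 (SE 0.43, edgeR adjusted p = 0.563). In mutant 1, Tsc1 was thus at 1.71 times the control mean while Tsc2 was at 0.00168 of it, with an interval from 4.26e-05 to 0.00937. Tsc2 shares 693 exon bases with Pkd1 on the other strand, where reads of an unstranded library cannot be assigned. Pkd1 had 671, 19 and 346 counts in mutants 1, 2 and 3, against 896, 837 and 1151 counts in controls 1, 2 and 3.

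Mtor, the kinase itself, lay between 10 and 11.5 CPM in 5 of 6 libraries. Mtor (ENSMUSG00000028991) is a protein-coding gene at chr4:148448611-148557683 of mm10, plus strand. It had 0.0852, 11.1 and 10 CPM in mutants 1, 2 and 3, against 11.5, 10.2 and 10.8 CPM in controls 1, 2 and 3. Mutant 2 lay between the controls on this scale, and after TMM scaling mutants 2 and 3 lay just below them. Mutants 2 and 3 averaged 10.6 CPM, which is 0.991 of the control mean, and mutant 1 held 2 reads. Mutant and control differed by a log2 value of -0.80 (SE 1.65, edgeR adjusted p = 0.961). Leaving out mutant 1 gave -0.23 (SE 0.65, edgeR adjusted p = 0.880). Angptl7 lies within the span of Mtor on the other strand and shares no exon base with its longest transcript. Angptl7 had 674, 70 and 253 counts in mutants 1, 2 and 3, against 211, 5 and 276 counts in controls 1, 2 and 3.

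Rptor, which encodes Raptor, varied within both groups. Rptor (ENSMUSG00000025583) is a protein-coding gene at chr11:119602905-119899576 of mm10, plus strand. It had 42.8, 2.97 and 9.81 CPM in mutants 1, 2 and 3, against 1.52, 7.09 and 1.5 CPM in controls 1, 2 and 3. Mutant 2 lay below control 2, and control 2 was itself several times controls 1 and 3. Mutant 1 was 9.96 times the control mean (interval 9.35 to 10.6). By edgeR, mutant minus control was 2.18 in log2 units (SE 1.60, adjusted p = 0.794). With mutant 1 left out it came to 0.27 (SE 1.20, edgeR adjusted p = 0.931). With sex as a covariate the log2 fold change was -0.73. Kinase and Raptor messages thus lay on opposite sides of the control mean in mutant 1.

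**Figure D3:**
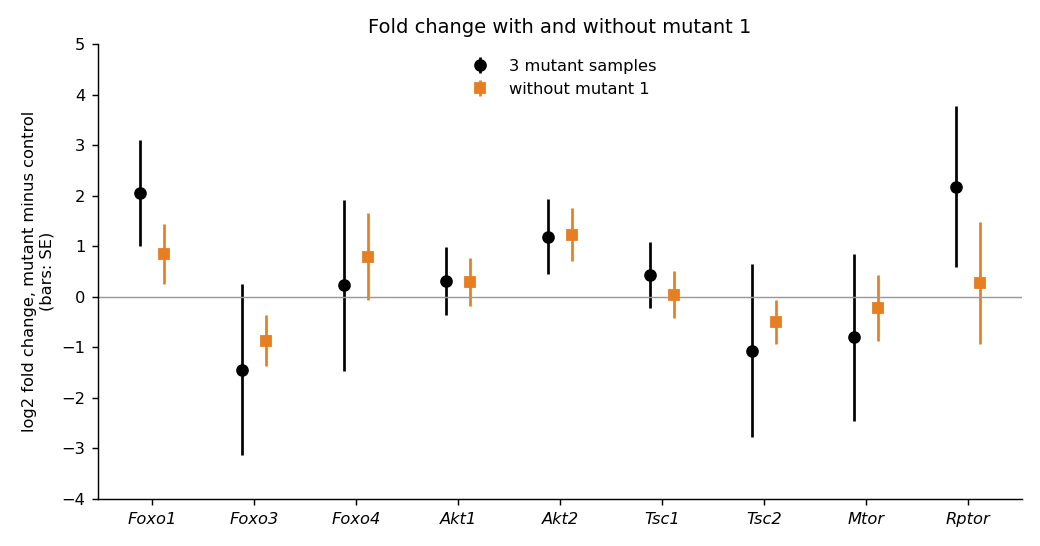
Log2 fold change of the 9 genes, mutant minus control, with SE bars, from all 3 mutant samples (black) and without mutant 1 (orange). Akt2 stays at 1.19 and 1.23, while Foxo1 moves between 2.06 and 0.85 and Rptor between 2.18 and 0.27.

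The extreme values of mutant 1 were not limited to the 9 genes. Of 6198 tested genes whose control samples lay between 1.51 and 51.3 CPM, the span of the 9 genes and a range chosen after their values were seen, 29.2% had at most 3 counts in mutant 1. The shares in mutants 2 and 3 were 3.76% and 2.74%. The share of 0% in each control followed from choosing the genes by their control level. Of the 9 genes, 4 had at most 3 counts in mutant 1 and 0 in mutants 2 and 3. In the other direction, 8.74% of those genes lay over 4-fold above both control samples in mutant 1, against 2.84% and 3.18% in mutants 2 and 3. Foxo1 and Rptor were the 2 of the 9 that did so. Near-absent and raised messages of the 9 genes in mutant 1 thus occurred in a library where both were frequent among genes of like level. Mutant 1 had 8200 genes with at least 10 counts, against 11365 and 11775 in mutants 2 and 3 and 11934 to 12618 in controls.

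**Figure D4:**
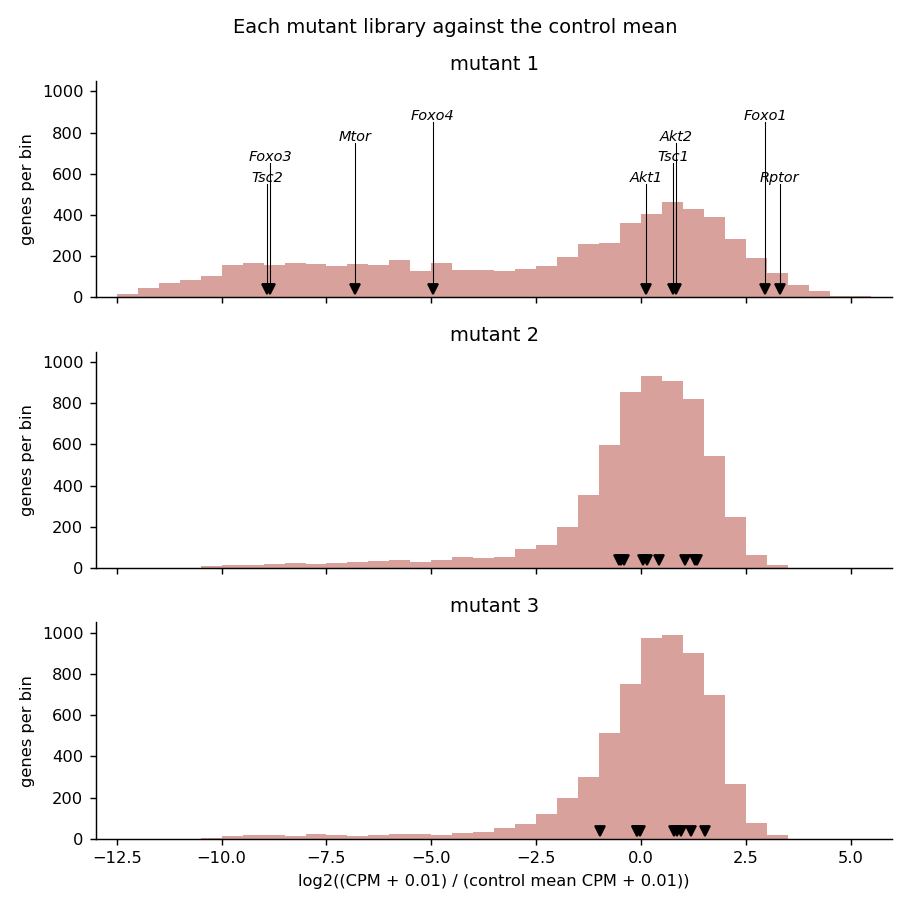
Log2 ratio of CPM in each library labelled mutant to the control mean, with 0.01 added to both, for 6198 genes with control levels in the span of the 9 genes (bins of width 0.5). Triangles mark the 9 genes, and the long left arm of mutant 1 holds Foxo3, Tsc2, Mtor and Foxo4.

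By level per kilobase, the order in controls was Akt1, Tsc1, Tsc2, Foxo3, Akt2, Foxo4, Mtor, Foxo1 and Rptor. The control means ran from 8.94 CPM per kilobase for Akt1 to 0.652 for Rptor. Both control samples of Akt1 (10.9 and 6.97) lay above those of every other gene of the 9. The ranges of Tsc1 (2.95 to 6.66) and Akt2 (1.90 to 4.78) each took in those of Tsc2 and Foxo3, so these 4 neighbours did not separate beyond their spread. The range of Foxo4 (1.15 to 1.56) took in that of Mtor, and that of Rptor overlapped that of Foxo1. In libraries labelled mutant the order of means was Akt1 (11.9 CPM per kilobase), Akt2 (8.01), Tsc1 (6.48), Foxo1 (4.19), Rptor (2.81), Tsc2 (2.24), Foxo4 (1.82), Foxo3 (1.48) and Mtor (0.826). Mutant 1 was the highest library for Foxo1, Tsc1 and Rptor and held at most 3 reads of Foxo3, Foxo4, Tsc2 and Mtor. The 9 transcripts were 2690 to 8665 bases long, and the count-weighted mean transcript length was 2428 to 2554 bases in mutant libraries and 2265 to 2296 bases in controls. A fit with a length correction is given with the other alternatives.

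The profiles most like those of 3 of the genes were sought over the 5 samples by the root mean square difference of centred log2 CPM, with 0.01 CPM added. For Foxo3 the nearest were Luzp1 (0.096), Rbm27 (0.114) and Ift43 (0.142), each with at most 2 counts in mutant 1. For Mtor they were Stard4 (0.137), Gimap4 (0.150) and Ubtd1 (0.174), with 7, 3 and 2 counts in mutant 1. For Akt1 they were Dph7 (0.085), Taf13 (0.114) and Wsb1 (0.116). Over 5 samples such likeness is a description only.

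The other genes of the pathway were taken from 8 lists of 160 genes, of which 148 were tested. By edgeR 0 of 148 passed over all genes, and 14 (9.46%) had an unadjusted p under 0.05, 9 higher and 5 lower in mutant, close to the 9.89% of all genes. The samples did not overlap for 44 (29.7%), 24 higher and 20 lower, close to the 32.0% of all genes. DESeq2 called 1 of them higher and 2 lower, with Phlpp2 and Gab2 described next. The median log2 fold change was 0.16. Without mutant 1 the list medians lay between -0.32 and 0.72. With a transcript length correction, which moved the median of all genes to 0.44, that of the receptor list was 0.34, so its sign turned. Without mutant 1 the medians of the list of brakes (-0.08) and of the list of substrates (-0.18) turned below 0. The genes named next, other than Phlpp2, were chosen because their mutant and control samples did not overlap after TMM scaling. Their separation thus follows from that choice and is no added result, and none passed by edgeR. Pik3ip1 was not analysed here.

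Upstream, 18 genes of receptors and phosphoinositide 3-kinase had a median log2 fold change of -0.35, with 7 above and 11 below control. Gab2, an adaptor that recruits the kinase to receptors, had 0.213, 0.140 and 0.0600 CPM in mutants 1, 2 and 3, against 1.69, 2.42 and 2.14 CPM in controls 1, 2 and 3. It was low in all mutants (log2 fold change -3.97, SE 1.55, edgeR adjusted p = 0.485, DESeq2 adjusted p = 0.00258), with 5, 5 and 2 counts in mutants 1, 2 and 3. The log2 fold change of Gab2 without mutant 1 was -4.62. Of 13 genes that restrain the kinase or AKT, 8 lay above and 5 below control. The inositol phosphatase gene Inpp5k had 111 to 178 CPM in mutants and 35.9 to 68.7 CPM in controls, and the phosphatase subunit gene Ppp2r5c had 77.8 to 136 CPM and 54.0 to 58.8 CPM in the same groups. Phlpp1, a phosphatase of AKT, had 0.0281 to 0.128 CPM in mutants and 0.290 to 1.08 CPM in controls. These values rest on 1 to 3 counts in mutants and 16 to 56 counts in controls. The log2 fold change of Phlpp1 was -3.37, and -4.28 without mutant 1. Its relative Phlpp2, named after its values were seen, had 84.5, 0.112 and 10 CPM in mutants 1, 2 and 3, against 0.668, 0.232 and 0.345 CPM in controls 1, 2 and 3, so the groups overlapped (DESeq2 adjusted p = 0.0427, edgeR adjusted p = 0.507).

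Among 10 further subunits and assembly factors of mTORC1 and mTORC2 the median log2 fold change was 0.45, with 7 above and 3 below control. Deptor, an inhibitor bound to mTOR, had 109, 140 and 151 CPM in mutants 1, 2 and 3, against 73.6, 53.4 and 75.4 CPM in controls 1, 2 and 3. The log2 fold change of Deptor was 0.98 (SE 0.35, edgeR adjusted p = 0.447). Mapkap1, a subunit of mTORC2, had 0.383, 19.6 and 21.7 CPM in mutants 1, 2 and 3, against 19.4, 28.2 and 22.3 CPM in controls 1, 2 and 3, and its groups overlap before TMM scaling.

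Of 17 genes that feed into TSC and RHEB, 12 lay above and 5 below control, with a median of 0.57. With the transcript length correction that median was 0.36, where the median of all genes was 0.44. Gsk3b, a kinase that AKT inhibits and that phosphorylates TSC2, had 348, 179 and 193 CPM in mutants 1, 2 and 3, against 77.3, 74.9 and 81.9 CPM in controls 1, 2 and 3. The log2 fold change of Gsk3b was 1.64 (SE 0.51, edgeR adjusted p = 0.395). Without mutant 1 the Gsk3b value was 1.04 (SE 0.22, edgeR adjusted p = 0.0689). Strada, a partner of the AMPK-activating kinase LKB1, had 41.2 to 83.5 CPM in mutants and 9.80 to 19.6 CPM in controls. Prkab2, a subunit of AMPK, had 0, 2 and 38 counts in mutants 1, 2 and 3, against 139, 147 and 174 counts in controls 1, 2 and 3. Rhebl1, a relative of Rheb, had 0, 59.2 and 89.1 CPM in mutants 1, 2 and 3, against 86.0, 109 and 85.4 CPM in controls 1, 2 and 3, and overlaps before TMM scaling.

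Of 26 genes of amino acid sensing at the lysosome, 15 lay above and 11 below control, with a median of 0.12. Seh1l, a GATOR2 subunit, had 42.3, 37.4 and 40.5 CPM in mutants 1, 2 and 3, against 15.3, 12.9 and 14.6 CPM in controls 1, 2 and 3. Its spread within each group was small beside the gap (log2 fold change 1.48, SE 0.67, edgeR adjusted p = 0.557). Of the Ragulator subunits, which anchor mTORC1 to the lysosome, Lamtor3 had 120 to 184 CPM in mutants and 60.9 to 90.1 CPM in controls. Lamtor5 had 317 to 348 CPM in mutants and 514 to 533 CPM in controls. The sign of its log2 fold change turned with the length correction (0.18), where the median of all genes was 0.44. Lamtor2 was not analysed here.

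Of 17 substrates of mTORC1 and AKT, 10 lay above and 7 below control, with a median of 0.30. Tfeb, a lysosomal transcription factor that mTORC1 keeps out of the nucleus, had 8.99, 27.6 and 17.0 CPM in mutants 1, 2 and 3, against 4.47, 4.26 and 5.77 CPM in controls 1, 2 and 3. The log2 fold change of Tfeb was 1.80 (SE 1.03, edgeR adjusted p = 0.677). Maf1, a repressor of RNA polymerase III, had 253 to 372 CPM in mutants and 177 to 241 CPM in controls. The cell death gene Bad had 67.3 to 89.1 CPM in mutants and 136 to 179 CPM in controls. The autophagy kinase gene Ulk1 had 0, 2.19 and 12.7 CPM in mutants 1, 2 and 3, against 11.4, 15.8 and 12.7 CPM in controls 1, 2 and 3, and overlaps before TMM scaling.

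Around the FOXO factors, 17 partners and modifiers had a median of 0.30, with 13 above and 4 below control. The 14-3-3 proteins hold phosphorylated FOXO factors in the cytoplasm. Of their genes, Ywhah had 408, 398 and 457 CPM in mutants 1, 2 and 3, against 180, 147 and 188 CPM in controls 1, 2 and 3. It had the smallest p of the 148 genes (log2 fold change 1.28, SE 0.27, unadjusted p = 0.00255, edgeR adjusted p = 0.387). Ywhae had 347 to 529 CPM in mutants and 182 to 285 CPM in controls. Usp7, a deubiquitinase that acts on FOXO4, had 5.45, 2.10 and 1.11 CPM in mutants 1, 2 and 3, against 19.6, 19.2 and 18.9 CPM in controls 1, 2 and 3. Its control values were nearly equal and no mutant came near them (log2 fold change -2.67, SE 1.21, edgeR adjusted p = 0.554). Without mutant 1 the Usp7 value was -3.79 (SE 0.77, edgeR adjusted p = 0.0689). Stub1, a ubiquitin ligase, had 186 to 306 CPM in mutants and 333 to 365 CPM in controls. The sign of its log2 fold change turned with a GC correction (0.04), where the median of all genes was 0.46.

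Of 30 genes known as FOXO targets in various tissues, 17 lay above and 13 below control, with a median of 0.18. The samples did not overlap for 7 higher and 6 lower genes of the 30, beside 14.9% higher and 17.2% lower over all genes. Pink1, a mitophagy kinase gene, had 154, 257 and 216 CPM in mutants 1, 2 and 3, against 102, 83.3 and 96.5 CPM in controls 1, 2 and 3. Gabarapl1, an autophagosome protein gene, had 148 to 218 CPM in mutants and 82.7 to 101 CPM in controls. Sod2, the mitochondrial superoxide dismutase gene, had 200 to 263 CPM in mutants and 319 to 330 CPM in controls. The sign of its log2 fold change turned with the length correction (0.28), where the median of all genes was 0.44. Gadd45a, a stress gene linked to growth arrest, had 32, 836 and 752 counts in mutants 1, 2 and 3, against 2615, 1982 and 2713 counts in controls 1, 2 and 3. These 4 genes were chosen by direction, up to 2 higher and 2 lower, so their lying on both sides of control follows from the choice. The log2 fold changes of these 4 were 1.11, 0.96, -0.52 and -1.70, with edgeR adjusted p values of 0.387, 0.39, 0.555 and 0.728.

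**Figure D5:**
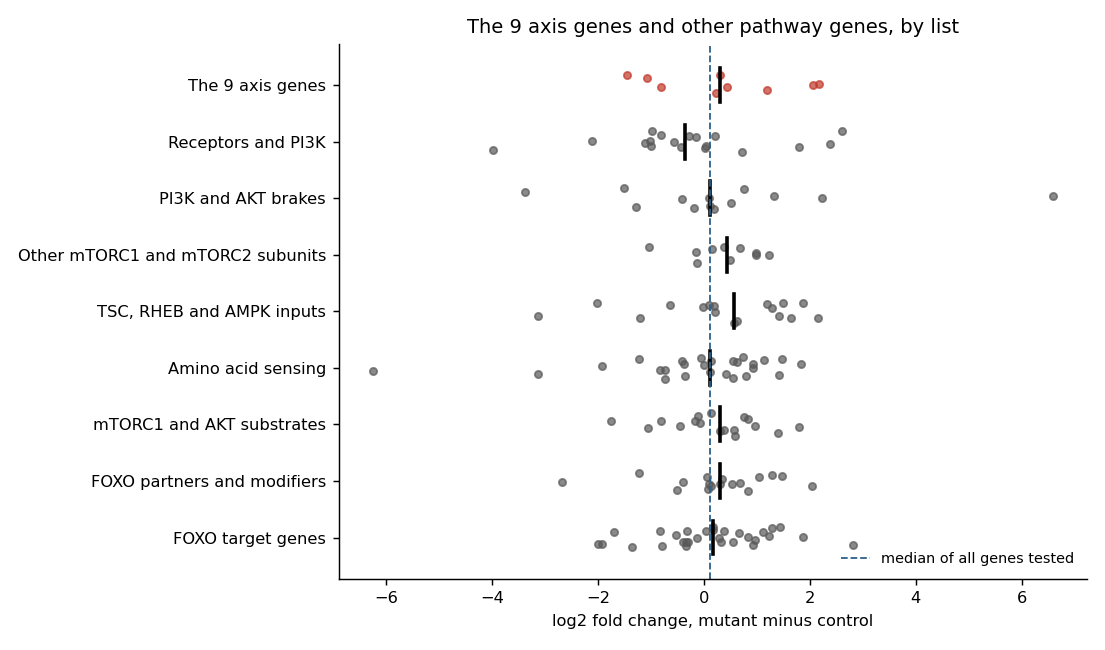
Log2 fold change, mutant minus control, of the 9 genes (red) and of the tested genes of 8 pathway lists (grey, 1 point per gene). Short vertical bars are list medians, which run from -0.35 to 0.57, and the dashed line is the median of all genes tested at 0.11.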

How the data were processed

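RNA of about 500 sorted stem cells per library was sequenced in 3 mutant and 3 control libraries. The authors deposited counts of reads per Ensembl gene identifier, without normalization. Per the submitters' processing notes, Trimmomatic 0.39, featureCounts and DESeq2 1.36.0 were used with build mm10. The aligner, annotation, strand setting and treatment of multi-mapping reads were not given in the sources used here. Rows that shared an identifier (134 rows, 60 identifiers) were summed, and 22839 identifiers received symbols from GENCODE M21. CPM are counts scaled to each library's total. Transcript length, GC content and coding frames came from the longest annotated transcript.

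Controls 1 and 3 were summed. The test was the edgeR 4.0.16 quasi-likelihood F test under R 4.3.3, after filterByExpr had kept genes at its limits of 10 (count) and 15 (total) (TMM factors of 0.843 to 1.17, glmQLFit and glmQLFTest, two-sided, Benjamini-Hochberg over 12350 genes, threshold 0.05). SE was taken as |log2 fold change| over root F. DESeq2 1.42.0 and limma-voom 3.58.1 were alternatives. On simulated data the edgeR fit called most changed genes at a low spread between samples, other than at the smallest change simulated. With the common dispersion of these samples given to every gene it called none. It thus had little power at that spread, and the power for genes of smaller spread here was not measured. The spread between samples was wide (common dispersion 1.09) and exceeded counting error at the depths given above. The 9 genes and the pathway lists were chosen with earlier results of these data known. Named pathway genes are up to 2 per list and direction with the smallest edgeR p among those whose samples did not overlap after TMM scaling. Genes for likeness were the 3 nearest protein-coding genes to Foxo3, Akt1 and Mtor. Some genes of the lists are not reported here by name. The replicate numbers were not used as pairs.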

Additional observations from a re-analysis of the deposited data

How the results depend on the processing

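Of 654 values of 35 named genes under 19 alternatives, 640 kept their direction and their side of the threshold, 12 reversed and 2 passed only by DESeq2, Gab2 among them. DESeq2 called 477 genes over the table and 3 of the pathway genes, where edgeR called 0 of each. Under every alternative that tested them, 0 of the 9 genes passed. The stricter filter on low counts, at least 10 in every sample, left Foxo3, Foxo4, Tsc2 and Mtor untested, with 18 alternatives each. It also left out some of the named pathway genes. Counts over the table were 0 adjusted in each edgeR alternative, including each left-out library (lowest and highest 0). Of the 9 genes, Foxo4 turned to -0.92 with limma-voom, -0.61 with a replicate block, -0.06 with a transcript length correction, and lay between -0.29 and 0.79 when a library was left out, with the lowest value without mutant 2 and -0.08 without mutant 3. Akt1 turned to -0.03 with upper quartile factors, -0.03 with sex as a covariate and -0.05 without controls 1 and 3, within a range of -0.05 to 0.75 over left-out libraries. Rptor turned to -0.73 with sex as a covariate. That covariate also moved Foxo1 from 2.06 to 1.13, Foxo3 from -1.44 to -0.57, Tsc2 from -1.07 to -0.62 and Mtor from -0.80 to -0.10. Without and with it, Akt2 was 1.19 and 1.20, Tsc1 was 0.43 and 0.30, and Foxo4 was 0.23 and 0.89. The signs of Lamtor5 (0.18) and Sod2 (0.28) turned with the length correction and that of Stub1 (0.04) with a GC correction. The cause was not tested. The median of all genes moved from 0.11 to 0.44 with the length correction, 0.46 with the GC correction, -0.20 with upper quartile factors and -0.32 with limma-voom. Leaving out controls 1 and 3, or control 2, leaves 1 control sample, assumed to vary like the mutants. Ranges over left-out libraries were 0.85 to 2.46 for Foxo1, -2.24 to -0.87 for Foxo3, 0.71 to 1.89 for Akt2, 0.00 to 1.03 for Tsc1, -1.63 to -0.50 for Tsc2, -1.36 to -0.23 for Mtor and 0.27 to 3.77 for Rptor. The replicate block was fitted to 6 separate libraries (Foxo1 1.63, Foxo3 -2.43, 0 genes called). Deviations of same-numbered libraries from their group means correlated at -0.04, -0.01 and 0.05. Controls 1 and 3 were nearly alike, so this could not show whether the numbers pair the samples. Sex is mixed within mutants only, so among Xist-low libraries just mutant 2 can be set against the controls, by the values per library.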
